A study of Mus musculus with 2 samples.

Results

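Dense clusters of distal open chromatin were examined in the frontal cortex of mice. Each library's peaks of DNase I cutting were merged, and merged regions that overlapped a peak of both libraries and whose centre lay more than 1 kb from every annotated transcription start site (TSS) of a protein-coding gene were kept. These shared distal regions were stitched where the gap between them was at most 12500 bp, and stitched groups of 5 or more regions are called domains. There were 421 domains with 2637 regions, 6.79% of the 38834 shared distal regions; the libraries shared 58659 of 109538 merged regions. The domains were chosen by the number of regions called, their spacing and their distance from a TSS and ranked by their signal, so these values are given as description.

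DNase-seq reads the ends left by the enzyme DNase I, which cuts DNA that nucleosomes do not cover. The mice were 25-day-old females of the hybrid strain B6CASTF1/J, whose parents are C57BL/6J and CAST/EiJ. The single group has 2 libraries, called replicate 1 and replicate 2, without any treatment or contrast. Their biosamples differ but their donor identifier is the same, and whether the libraries stem from separate animals cannot be told from the labels.

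Distal open regions are mostly enhancers, insulators and unannotated promoters, where bound proteins displace nucleosomes and leave short protected stretches, called footprints, within the cut DNA. Clusters of such regions near one gene are known from genes of cell identity and from genes that are switched on by stimuli. Genes read by RNA polymerase III, among them the tRNA genes, are also kept open and often lie in groups.

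The data were the peaks the authors called in each library, 85603 in replicate 1 and 87847 in replicate 2, with a read-depth normalized signal per peak on a scale that is not stated, called its value here (0.627 for the median peak in replicate 1 and 0.679 in replicate 2). The sequencing depth is not given in the sources used here. A region's value is the sum over its peaks. The label of the tissue was set against marker genes by promoter regions open in both libraries: 13 of 13 pan-neuronal and 11 of 12 excitatory neuron genes had one, against 1 of 13 liver genes and 61.1% of all protein-coding genes. One was also open at 9 of 10 striatal neuron genes, 12 of 12 housekeeping genes, 10 of 15 inhibitory neuron genes and 4 of 12 lymphocyte genes, and at 3 of 12 genes of midbrain and hindbrain factors. In the glial lists, 6 of 12 astrocyte, 5 of 14 oligodendrocyte, 4 of 8 oligodendrocyte precursor and 4 of 12 microglia genes had one. So did 5 of 13 endothelial and mural cell genes. No test was made of any difference below, since there is 1 group, and the shares of domain regions and of other regions stand side by side as description. In bulk tissue, fewer cells of a type and less open DNA per cell cannot be told apart.

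The strongest region of each of 5 leading domains is printed because these domains stand for the kinds of locus that head the ranking: a long non-coding RNA on X, a tRNA gene cluster, an activity-induced gene, a clock gene and a non-coding interval near a neuronal transcription factor. Sequences are the reference of RefSeq GRCm38.p6 (mm10), plus strand, 5′ to 3′, and not that of the CAST/EiJ allele. At Nr1d1 the 300 bases printed are part of a region of 380 bp. Capitals mark bases inside a footprint of both libraries, except in the tRNA region, where they mark the tRNA gene, a tyrosine tRNA (n-TYgta7) on the minus strand.
Firre, chrX:50602961-50603180: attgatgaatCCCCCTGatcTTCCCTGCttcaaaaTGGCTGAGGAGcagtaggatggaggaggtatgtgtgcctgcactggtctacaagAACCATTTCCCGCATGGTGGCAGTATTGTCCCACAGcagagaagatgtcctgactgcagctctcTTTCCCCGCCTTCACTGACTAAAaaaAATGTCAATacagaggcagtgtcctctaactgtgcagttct
tRNA-Tyr near Abt1, chr13:23432961-23433160: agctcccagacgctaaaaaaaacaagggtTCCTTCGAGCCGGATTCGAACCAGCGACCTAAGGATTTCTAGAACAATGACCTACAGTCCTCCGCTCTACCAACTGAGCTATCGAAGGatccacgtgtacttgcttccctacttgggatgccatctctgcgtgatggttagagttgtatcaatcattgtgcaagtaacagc
Rtn2, near Fosb, chr7:19295921-19296080: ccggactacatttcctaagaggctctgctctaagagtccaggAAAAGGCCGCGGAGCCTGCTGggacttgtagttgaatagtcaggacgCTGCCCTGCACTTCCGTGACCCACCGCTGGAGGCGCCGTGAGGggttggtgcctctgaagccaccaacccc
Nr1d1, chr11:98773881-98774180: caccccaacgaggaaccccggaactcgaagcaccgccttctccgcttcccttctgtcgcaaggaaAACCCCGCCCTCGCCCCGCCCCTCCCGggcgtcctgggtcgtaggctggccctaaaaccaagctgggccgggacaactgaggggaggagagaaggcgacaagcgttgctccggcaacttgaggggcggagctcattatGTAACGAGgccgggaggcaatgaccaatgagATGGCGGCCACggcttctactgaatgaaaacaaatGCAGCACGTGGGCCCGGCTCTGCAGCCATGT
C130071C03Rik interval, nearest coding gene Mef2c, chr13:83715061-83715300: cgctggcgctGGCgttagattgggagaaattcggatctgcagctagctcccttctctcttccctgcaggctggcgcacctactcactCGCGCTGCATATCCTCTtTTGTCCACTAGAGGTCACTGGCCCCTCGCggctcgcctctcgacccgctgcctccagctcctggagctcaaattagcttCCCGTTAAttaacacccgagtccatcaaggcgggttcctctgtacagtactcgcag

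Most domains were small. Of the 26576 stitched groups, 18893 were single regions, and 314 domains (74.6%) had 5 or 6 regions, while 20 had at least 10. The median domain had 6 regions over 19.9 kb, and lengths ran from 2.18 to 98.3 kb. Together the domains spanned 8.68 Mb, 0.319% of the genome, of which the regions covered 0.736 Mb. They held 8.74% of the shared distal value in replicate 1 and 8.50% in replicate 2. Summed values had a median of 6.60 and ran from 0.911 to 58.3, and the strongest region of a domain held a median of 29.97% of its value. Chromosome 11 had 43 domains, or 3.52 per 10 Mb, and chromosome 16 had 3, or 0.305 per 10 Mb.

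**Figure D1:**
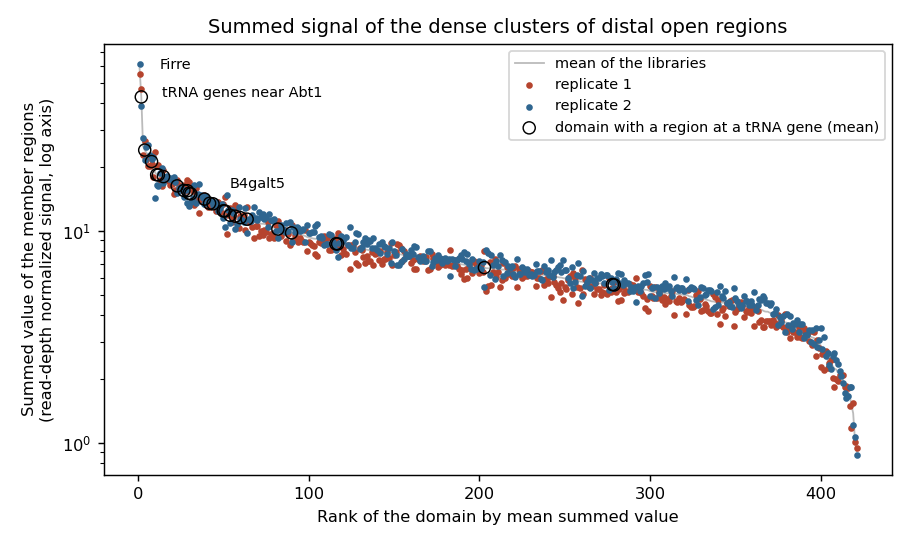
Summed value of each of the 421 domains in replicate 1 and replicate 2 (log axis) against its rank by the mean of the libraries. The 27 domains with a region at a tRNA gene are circled; the curve falls from 58.3 at Firre to 0.911 at the last domain.

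The threshold of 5 regions cut through a continuous series. There were 210 domains of exactly 5 regions, with a median value of 5.67, and 570 groups of exactly 4 regions, just outside, with a median of 4.33. The strongest group of 4 lay at chr15:99714941-99735920, with Cox14 as nearest gene, and reached 33.9 in replicate 1 and 38.4 in replicate 2, a mean of 36.1 that lies between those of ranks 2 and 3. The next groups of 4 had means of 14.8 (nearest TSS Gm15319, chromosome 8) and 12.54 (Bahcc1, chromosome 11). At the other end, the weakest domains were in Ighmbp2 (0.949 in replicate 1 and 0.874 in replicate 2), in Sh3rf3 (1.01 and 1.07) and on chromosome 8 with Mphosph6 as nearest gene (1.54 and 1.22).

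The strongest domain lay over Firre, a long non-coding RNA gene on the X chromosome that is known from mouse for its repeated sequence and for binding of the insulator protein CTCF on the inactive X. It had 30 regions in 98.3 kb at chrX:50537215-50635540, and its summed value was 55.1 in replicate 1 and 61.5 in replicate 2 (mean 58.3 ± 4.55, SD, n = 2). The value was spread over the domain: the strongest region, printed above, held 6.98% of it, with 3.16 in replicate 1 and 4.97 in replicate 2. A footprint was called in both libraries in 29 of the 30 regions. Regions of this domain resembled each other in sequence. A stretch of 20 identical bases was shared with another region of the domain by 22 of the 30 regions, on either strand, and the most frequent one, agacagcaggagcagctgtg, was in 9 of them. Within the central 200 bp, matches to CAGCTG, a core bound by basic helix-loop-helix factors, were in 11 regions, against 19.7% of all shared distal regions. The most frequent stretch itself holds these letters, so the matches are not independent of each other. Matches to GGGCGGG, the core of SP and KLF factors, were in 10, against 5.01% of all shared distal regions. The strict CTCF consensus used here was in 0 of the 30, against 9.30% of all. Of the 30, 2 had most of their 32-base words also elsewhere in the genome.

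Repeats of that kind were uncommon: 31 of the 421 domains had a 20-base stretch in at least 2 of their regions and 10 in at least 3. The other domain with many was rank 20, at the non-coding transcript 4933407K13Rik on the X chromosome, where aaaccaattccgcttgatgg was in 8 of 11 regions. There 8 of the 11 regions were multi-copy, which means here that under 50% of the 32-base words sampled in a region occur once in the genome. Reads from such regions cannot be placed with certainty, and how the authors treated them is not given in the sources used here. Multi-copy regions made up 77 (2.92%) of the domain regions and 422 (1.17%) of the other shared distal regions. They were at least 50% of the regions in 11 domains, which include ranks 10 (Mid1, all 8 regions) and 17 (chromosome 8, all 8 regions). The domain in Mid1, a ubiquitin ligase gene at the pseudoautosomal boundary, had 23.4 in replicate 1 and 14.3 in replicate 2. Although the animals were female, 1 domain was called on Y, at chrY:10705561-10709860, with 1.17 in replicate 1 and 1.84 in replicate 2, and all of its 5 regions were multi-copy.

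Clusters of tRNA genes, which are read by RNA polymerase III, made up several of the strongest domains. A tRNA gene lay in 122 of the 2637 domain regions (4.63%), against 66 (0.182%) of the other shared distal regions. These genes number 126 of the 402 tRNA genes in RefSeq (31.3%) and serve 19 amino acids, with alanine, leucine and valine at 11 genes each. They fell in 27 domains, of which 23 had at least 3 such regions, and 6 of the 20 strongest domains were among them. Summed values had a median of 13.4 in the tRNA domains and 6.42 in the other domains. The tRNA genes are grouped in the genome and the rule takes up grouped regions, so the share is a description. A footprint was called in both libraries in 97.5% of the tRNA regions of domains.

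The richest tRNA domain, rank 2, lay at chr13:23397001-23467180 near Btn1a1 and Abt1, within the large histone and tRNA gene region of chromosome 13, which held 8 of the 27 tRNA domains. It had 22 regions, 16 of them with a tRNA gene, and a value of 46.7 in replicate 1 and 38.9 in replicate 2. Its strongest region, the tRNA-Tyr gene printed above, had 4.67 in replicate 1 and 4.74 in replicate 2. Rank 4, at chr11:69035961-69041920 beside Ctc1, a gene of the telomere-binding CST complex, packed 8 regions, 7 with a tRNA gene, into 5.96 kb, with 26.5 in replicate 1 and 21.5 in replicate 2. Rank 12, near the histone gene Hist1h4h, had a tRNA gene in 7 of 8 regions and 20.5 in replicate 1 and 16.2 in replicate 2. Others among the strongest 20 were near Olfr1423, an olfactory receptor gene (6 of 10 regions with a tRNA gene), and near Cfap126 (3 of 7). A region without a tRNA gene in the latter domain lay in Sdhc, which encodes a subunit of mitochondrial complex II.

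The tRNA regions stood apart between the libraries. The median tRNA region had 2.48 in replicate 1 and 2.06 in replicate 2, and 106 of the 122 (86.9%) were higher in replicate 1. Of the other 2515 domain regions 948 (37.7%) were higher in replicate 1. Outside domains, 59 of the 66 tRNA regions (89.4%) were higher in replicate 1. The median log2 ratio of replicate 1 over replicate 2 was 0.37 for tRNA regions in domains, 0.31 for tRNA regions outside and −0.14 for the other domain regions. At the level of domains, 24 of 27 with a tRNA region were higher in replicate 1, against 113 of the other 394. The tRNA regions had a median of 9 CpG per 200 bp. Among domain regions without a tRNA gene and with 8 to 11 CpG, 42.7% were higher in replicate 1. What sets the libraries apart here was not tested.

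**Figure D2:**
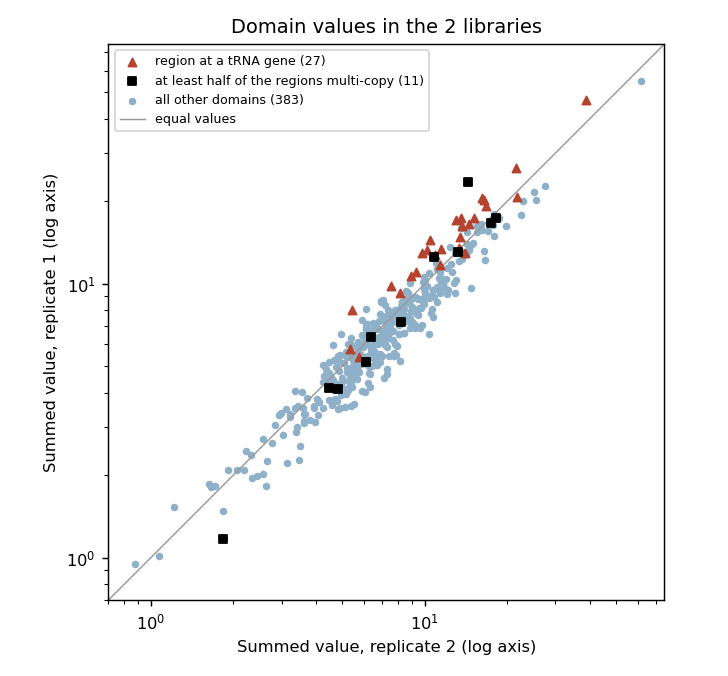
Summed value of each domain in replicate 1 against replicate 2 (log axes), with the line of equal values. Triangles, the 27 domains with a tRNA region, lie above the line in 24 cases; squares are 11 domains with mostly multi-copy regions.

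Across all domains the libraries were close. The log2 ratio of replicate 1 over replicate 2 had a median of −0.11 and an SD of 0.22 and ran from −0.66 to 0.71. The libraries differed more than 1.5-fold in 11 of 421 domains and more than 2-fold in 0. Summed values were higher in replicate 1 in 137 domains and higher in replicate 2 in 284. Over the 421 domains, Spearman's rho between the libraries was 0.943, where both libraries share the choice of regions and the width of the domains.

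Ranks 5 to 7 held no tRNA gene and lay at or near an activity-induced gene, a clock gene and a neuronal transcription factor gene. Rank 5, at chr7:19284901-19343720, spanned 58.8 kb over Rtn2, a reticulon of the endoplasmic reticulum, and Fosb, an AP-1 subunit gene induced by neuronal activity. Its 12 regions summed to 21.7 in replicate 1 and 25.0 in replicate 2, and all 12 had a footprint in both libraries. The strongest region was in an exon of Rtn2, with 4.50 in replicate 1 and 4.90 in replicate 2. Most regions of the domain lay outside both Rtn2 and Fosb. The strongest of these had 2.64 in replicate 1 and 3.76 in replicate 2, and the last ones along the span had Ercc1 as the nearest coding gene. Of the 12 regions of the domain 3 held the AP-1 letters TGANTCA, which were in 8.53% of all domain regions and 12.47% of all shared distal regions. The 2 regions inside Fosb itself were weaker, 2.33 in replicate 1 and 2.74 in replicate 2 together, than the promoter region of Fosb, which had 3.71 in replicate 1 and 4.09 in replicate 2.

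Rank 6, at chr11:98773841-98789140, lay at Nr1d1, which encodes REV-ERBα, a repressor in the circadian clock. It had 8 regions in 15.3 kb and 20.1 in replicate 1 and 25.4 in replicate 2. The strongest region lay 1303 bp from a TSS, close to the 1 kb limit, in an intron of Nr1d1, and had 4.73 in replicate 1 and 7.53 in replicate 2. The printed sequence has a footprint that takes in the whole of a match to the EGR letters GCGNGGGCG and of 2 matches to GGGCGGG on the same strand, the first of which overlaps the EGR match. All other regions of the domain lay outside the gene. The next strongest had 3.68 and 4.42 in replicate 1 and 5.96 and 4.66 in replicate 2. The latter, like most of the regions outside the gene, had Msl1 as the nearest coding gene.

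Rank 7, at chr13:83713721-83745320, lay across the non-coding gene C130071C03Rik with Mef2c, a transcription factor gene of excitatory neurons, as the nearest coding gene. Its nearest region was 61172 bp from a coding TSS. The 12 regions had 20.1 in replicate 1 and 22.8 in replicate 2. The strongest, printed above, had 3.76 in replicate 1 and 4.07 in replicate 2 and held the homeodomain letters TAATTA, partly inside a footprint of both libraries. Other domains of the strongest 20 included those at Kdm6b, a histone H3K27 demethylase gene, with 17.9 in each library, and Nfic, a nuclear factor I gene, with 15 regions and 17.3 in replicate 1 and 17.6 in replicate 2. A domain without a coding gene near Irf2bpl had 17.9 in replicate 1 and 22.4 in replicate 2, and one at chr1:86487421-86509660 near Ptma, the prothymosin gene, had 17.4 in replicate 1 and 18.7 in replicate 2. Sfi1, a centrosome protein gene, had regions of 2 domains. Rank 3, which it shared with the pseudogene Pisd-ps1, had 22.8 in replicate 1 and 27.4 in replicate 2. Most regions of rank 3 lay outside Sfi1, among them the strongest, with 7.93 in replicate 1 and 9.98 in replicate 2. Rank 14 had 16.3 in replicate 1 and 19.8 in replicate 2. Multi-copy regions were 2 of 8 at rank 3 and 1 of 14 at rank 14.

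**Figure D3:**
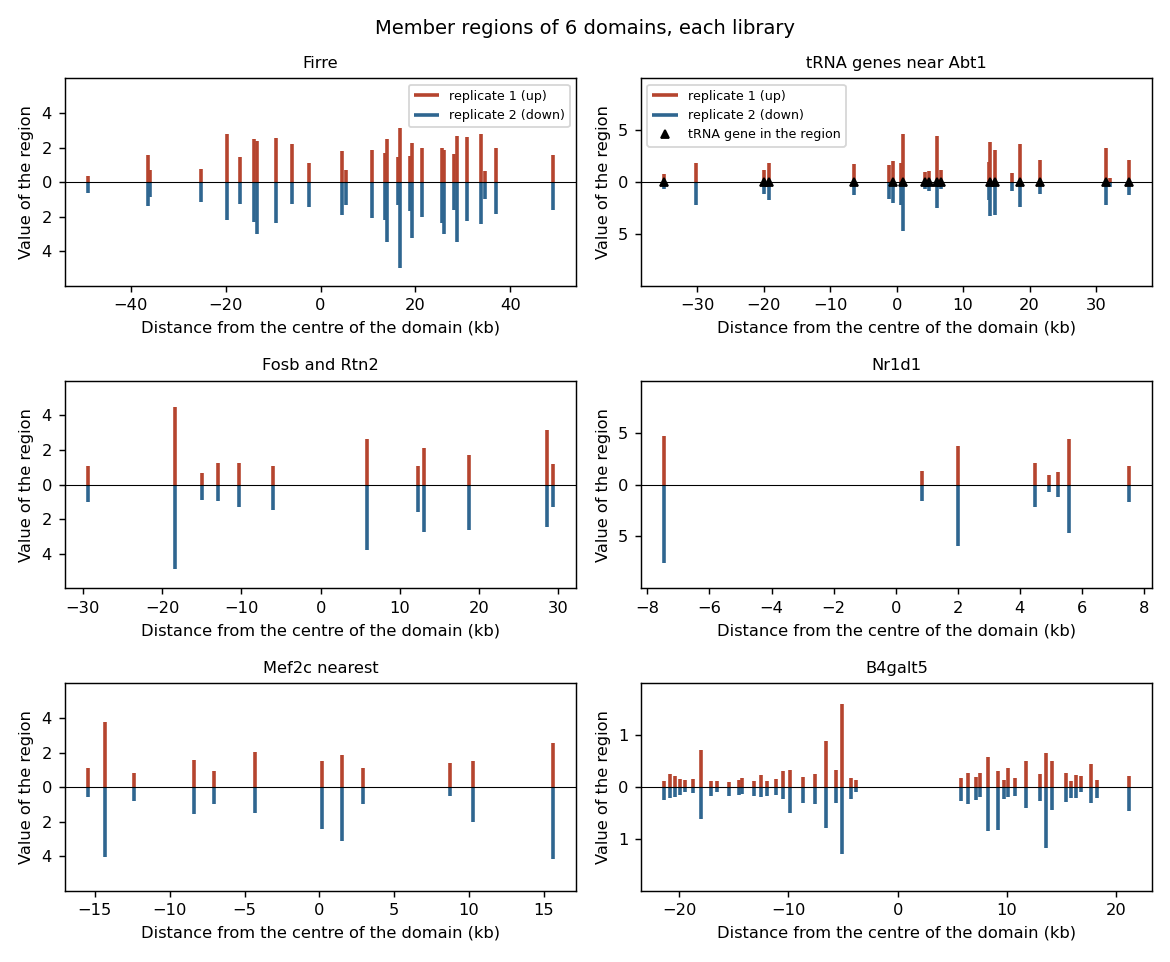
Value of every member region (vertical lines, replicate 1 upwards, replicate 2 downwards) against its distance from the centre of the domain in kb, for 6 domains. Firre and the tRNA cluster have many regions over a long span, Nr1d1 and the Mef2c interval a few high ones, and the domain at B4galt5, of which 10 regions lie in that gene, has 45 regions with none above 1.45 on average of the libraries.

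A further kind of domain was made of many weak regions. The domain with the most regions of all, 45 in 42.9 kb at chr2:167264461-167307380, had 10 of them in the body of B4galt5, which encodes a lactosylceramide synthase, and the rest outside it. The median region had 0.215 in replicate 1 and 0.223 in replicate 2, so that the domain ranked 40 by its sum of 13.3 in replicate 1 and 14.5 in replicate 2. Only 12 of the 45 regions had a footprint in both libraries. The domain at Vps33a, a gene of vesicle tethering, had 22 regions and a sum of 5.62 in replicate 1 and 5.18 in replicate 2, and 3 of the 22 had a footprint in both. The densest domains were short, such as A330023F24Rik on chromosome 1, with 5 regions in 2.18 kb, or 22.9 per 10 kb, Sh3rf3, with 21.1 per 10 kb, and Plekhb1, with 20.2, followed by a tRNA cluster near Rnase12 (19.9) and a Zswim6 transcript (18.5). The longest after Firre, the tRNA cluster near Abt1 and the Fosb domain were at Ttc7b, with 8 regions in 52.3 kb of which 3 lay in the gene, and near 1600014C23Rik on chromosome 17, with 9 regions in 48.9 kb.

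Under 50% of the regions had a footprint in both libraries in 28 domains, and in 203 domains all had one. In the 28, regions covered a median of 23.6% of the span and had a median mean value of 0.378, against 7.39% and 1.20 in the other domains. Among the 28 are the domains at B4galt5, Vps33a, Rasgef1a, Acap3, Tubgcp2, Plekhb1 and Gria1.

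The deposited false discovery rates of the cut rate also differ between domains. Positions with a rate of at most 0.05 made up 12.68% of the domain spans in replicate 1 and 11.98% in replicate 2, and 0.982% and 0.909% of the 21 chromosomes. Between the domain regions the share was 5.38% in replicate 1 and 4.94% in replicate 2. Those bases still include the promoter regions within 100 spans and 1088 regions called in 1 library only. The median domain had 11.1% of its span listed in replicate 1 and 10.1% in replicate 2, against 10.03% and 8.92% for the groups of 4 regions. Over 50% of the span was listed in both libraries in 23 domains. The domain at B4galt5 was one of them, with 52.6% in replicate 1 and 62.7% in replicate 2; Firre had 12.2% and 11.5%.

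Footprints, a measure that the rule did not use but that comes from the same libraries, were called in both libraries in 83.3% of the domain regions, against 84.4% of the other shared distal regions. That similarity joins regions of unlike strength. The median value was 0.980 in domain regions and 0.750 in the others, and 40.1% of the domain regions were in the highest of 4 classes of equal size by value. In the lowest class 37.0% of 416 domain regions had a footprint in both libraries, against 58.4% of 9292 others. In the classes above it, the shares were 78.5% against 85.3%, 90.1% against 95.7%, and 99.1% against 99.5%. Domain regions thus had the lower share in each class, and the gap narrowed with value. These shares include the 256 regions of the 28 domains with few footprints described above. The classes were not computed without those domains. Without the condition on the second library, 89.1% of domain regions and 90.7% of the others had a footprint in replicate 1, and 89.4% and 91.4% had one in replicate 2. Regions of 1 domain share a locus and are not independent of each other.

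**Figure D4:**
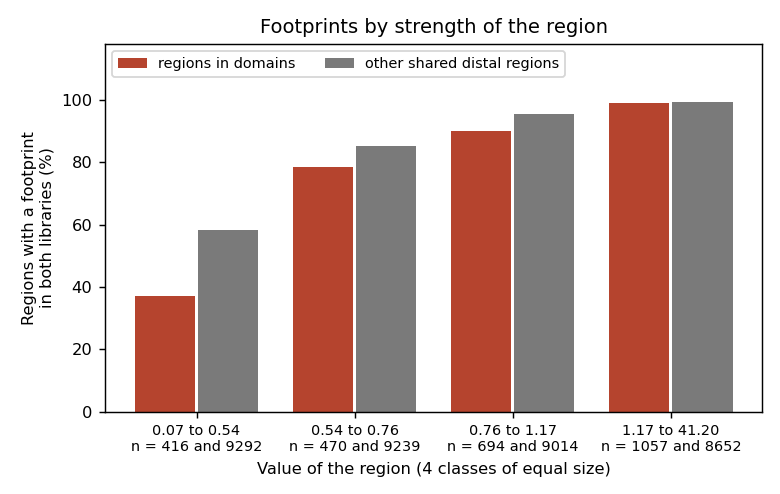
Percentage of regions with a footprint in both libraries, in 4 classes of equal size by value over all shared distal regions; bars are regions in domains and, to their right, other shared distal regions, with the number of each under the bars. The bars differ most in the lowest class, 37.0% against 58.4%, and least in the highest, 99.1% against 99.5%.

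Domain regions lay closer to a coding TSS than other shared distal regions but less often inside a coding gene. The distance to the nearest coding TSS had a median of 16.0 kb, against 25.2 kb for the others, and 7.93% against 20.3% were over 100 kb away. They were intronic in 41.7%, against 47.2%, exonic in 10.7%, against 7.60%, and intergenic in 47.6%, against 45.2%, while 38.7% against 46.6% lay in the body of a protein-coding gene. The central 200 bp had a median GC content of 54.5%, against 51% for the others, and a median of 5 CpG, against 3. At least 10 CpG were found in 18.1% against 7.31%. A promoter region of a coding gene lay within 100 of the 421 spans (23.8%), and the spans also held 1088 regions called in 1 library only. A RefSeq enhancer overlapped 34 domain regions (1.29%), against 188 of the others (0.519%). A region at a lincRNA gene was in 79 of the 421 domains. No such count was made outside the domains, so whether this is many cannot be told.

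Short motif letters were counted in the central 200 bp on both strands. The letters GGGCGGG (SP/KLF) were in 8.87% of domain regions, against 4.73% of the others and 5.01% of all shared distal regions. GCGNGGGCG, read by the EGR factors that neuronal activity induces, was in 2.05% against 0.823% (0.906% of all), and TGACGTCA, the cAMP response element (CRE), in 1.06% against 0.478% (0.518% of all). The EGR and SP/KLF letters can overlap, as they do in the Nr1d1 region. Shares were lower in domain regions for TGANTCA of AP-1 (8.53% against 12.8%, 12.47% of all), CAGATG, the E-box of NEUROD factors (19.7% against 24.7%, 24.3% of all), TTGGCA of nuclear factor I (13.4% against 17.8%, 17.5% of all) and the MEF2 consensus (2.20% against 3.26%, 3.19% of all). CAGCTG was nearly level at 19.1% against 19.8% (19.7% of all). The consensus of CTCF was in 7.74% against 9.42% (9.30% of all).

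Part of these differences moved with CpG content. Among regions with at most 4 CpG, SP/KLF letters were in 2.64% of domain regions and 2.06% of the others, and EGR letters in 0.155% and 0.106%. Among those with more than 4 CpG, SP/KLF letters were in 14.8% and 9.77%, and EGR letters in 3.85% and 2.18%. The lower AP-1 share held in both classes, with 9.71% against 13.8% at up to 4 CpG and 7.41% against 10.8% above. Without tRNA regions the SP/KLF shares were 9.15% and 4.73%. A match gives only the presence of the letters.

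**Figure D5:**
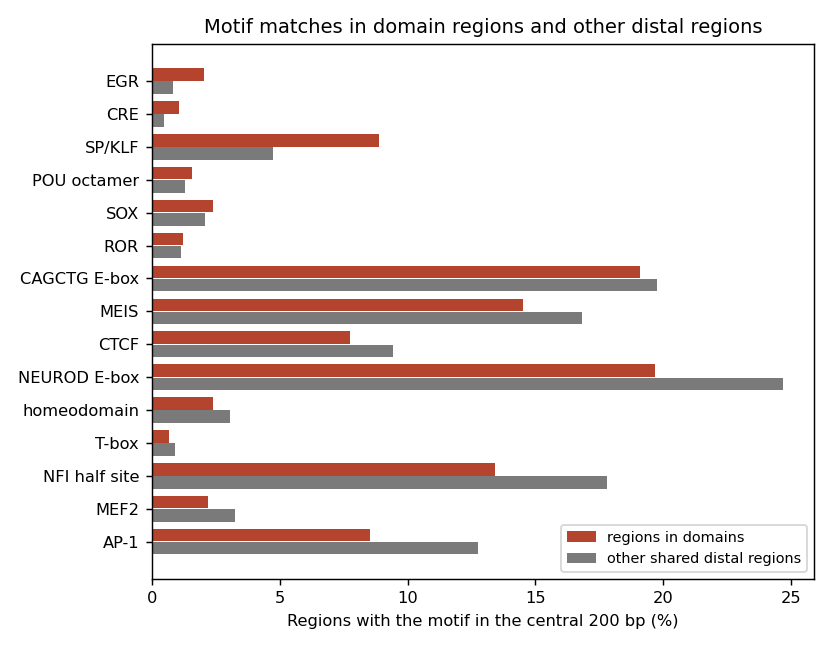
Percentage of regions that hold each motif in their central 200 bp, with regions in domains above other shared distal regions, ordered by the ratio and shown for motifs with at least 200 matches. EGR (2.05% against 0.823%), CRE and SP/KLF head the order, and AP-1 (8.53% against 12.8%) and MEF2 end it.

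Protein-coding genes with a domain region in their body numbered 280 of 21938 (1.28%), and 248 domains touched such a gene while 173 touched none. A promoter region was open in both libraries in 228 of the 280 (81.4%), against 61.1% of all protein-coding genes. The promoter region can be the domain region itself, so these shares are not independent of the choice of genes. In Pou3f2 both had the same values, 2.51 in replicate 1 and 1.82 in replicate 2. The genes were longer, with a median of 34.1 kb against 17.4 kb for all protein-coding genes, and the share with a domain was 0.617% of genes under 10 kb and 3.53% of those over 300 kb. The genes with the most domain regions were Gm20388, a readthrough gene of 4435 kb with 23 regions in 4 domains, Vps33a with 20, Rasgef1a with 19, Sfi1 with 17 and Nfic with 15. Gse1, which lies inside Gm20388, had 11, B4galt5 had 10, and Acap3, Rsph1 and Tubgcp2 had 9 each. A domain that touched the non-coding Malat1, an abundant nuclear RNA, had 5 regions with 15.6 in replicate 1 and 16.1 in replicate 2. These are sums over the whole domain, and how many of its regions lie inside Malat1 is not given here.

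Of 273 genes in 21 lists of cell types and functions, 15 had a domain (5.49%, against 1.28% of all protein-coding genes), and 12 lists had none. The list genes are longer too, with a median of 25.0 kb. Among oligodendrocyte genes 3 of 14 had a domain. Mbp, the myelin basic protein gene, had 5 regions with 6.72 in replicate 1 and 6.99 in replicate 2. Mobp, another myelin protein gene, had 3 with 2.58 and 2.42, and Cnp, the myelin enzyme gene, had 1 with 0.650 and 0.571. The oligodendrocyte gene Mog had none.

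Among activity-induced genes 3 of 16 had a domain, namely Fosb, Egr1 and Egr3. Egr1 and Egr3, zinc finger factors of the early response, had 1 domain region each in the body, with 0.475 and 0.633 in replicate 1 and 0.759 in each in replicate 2. The domains to which these belong had 5 regions each, with 5.93 in replicate 1 and 7.91 in replicate 2 at Egr1 and 5.47 and 6.97 at Egr3. Npas4, an activity-induced factor, was the nearest gene of a domain of 6 regions with 9.67 in replicate 1 and 14.8 in replicate 2. Its value differed by more than 1.5-fold between the libraries.

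Among neuronal genes, Nrxn2, a presynaptic neurexin gene, had 5 domain regions with 8.01 in replicate 1 and 7.82 in replicate 2. Tcf4, a helix-loop-helix factor gene, had 6 with 7.54 in replicate 1 and 7.27 in replicate 2, and Mef2d had 4 with 5.47 and 5.53. Camk2a, the kinase of excitatory synapses, had 5 with 4.66 in replicate 1 and 6.10 in replicate 2. The glutamate receptor genes Gria1 (8 regions, mean 3.28 ± 0.406, SD, n = 2) and Grik5 (2 regions, mean 2.45 ± 0.781, SD, n = 2) and the developmental factor genes Pou3f2 and Otx1 also had a domain. The body of Pou3f2, a POU factor gene of upper cortical layers, held 1 region of a domain of 11 regions with 10.6 in replicate 1 and 9.97 in replicate 2. By list these were 1 of 15 synaptic adhesion genes, 2 of 12 neuronal activators, 1 of 12 excitatory neuron genes, 2 of 22 glutamate receptor genes, 1 of 14 cortical layer genes and 1 of 10 forebrain factor genes.

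None of 13 pan-neuronal genes, among them Snap25 and Syt1, had a domain, although all 13 had a promoter region open in both libraries, and none of the 12 housekeeping genes had one, with all 12 promoters open. None was found either among the genes of inhibitory neurons (15 genes), astrocytes (12), oligodendrocyte precursors (8), microglia (12), endothelial and mural cells (13), striatal neurons (10), midbrain and hindbrain (12), liver (13), striated muscle and heart (12) and lymphocytes (12). At 1.28% of all genes, a list of this size would often hold none, so these zeros say little. The astrocyte transporter gene Slc1a3, the oligodendrocyte gene Opalin, Mef2c and Nfia had no domain region in the body but were the nearest coding gene of a domain.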

How the data were processed

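DNase-seq of 2 libraries of 1 group was analysed. The authors deposited for each library a longer and a shorter peak list with a read-depth normalized signal per peak, footprint intervals whose other column is 1 constant (0.01), and intervals with a q-value, the false discovery rate of their cut rate, listed up to 0.05. Per the deposited text files, all were made on mm10 from that library's own alignment, so libraries were not pooled. The sources used here do not give the aligner, the callers, versions, filters or depth, and no interval for counting error can be given.

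The longer lists were used. Peaks of both libraries were merged where they overlapped, while peaks that only touched stayed separate. A region was shared when a peak of each library overlapped it by at least 1 bp. A region's value in a library was the sum of its peaks' signal, and domains were ranked by the sum over regions, averaged over the libraries. TSS, gene bodies and exons came from GENCODE vM21 on GRCm38.p6, tRNA genes and sequences from RefSeq. A gene had a domain when a member region overlapped its body by at least 1 bp. Motifs (20), GC and CpG were counted in the central 200 bp. Copy number was read from 32-base words every 10 bp of a region. All was computed in Python 3.11.15 with numpy 2.4.6 and pandas 2.3.3, and drawn with matplotlib 3.10.9. Stitching and motif counts were tested on simulated data. With 1 group of 2 libraries no test was made, and all comparisons are descriptions.

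The domains named were the strongest 20, the 5 with most regions, the longest, the densest, the weakest 3 and the strongest 3 groups of 4, the 10 genes with most domain regions, and up to 4 genes per list with and up to 2 without a domain. Some named items are not reported here. The members and lists were chosen with earlier results of these data known. The tRNA genes, the copy number, the shared 20-base stretches, the footprint capitals and the domains with few footprints were looked at after the data were seen. Alternatives were the gap, the number of regions, the TSS distance, the shorter lists, the overlap, a minimum value, masked sequence, the scale and each library alone.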

Additional observations from a re-analysis of the deposited data

How the results depend on the processing

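The number of domains followed the rule closely. It was 421 as reported, 182 with a gap of 6 kb and 1110 with 25 kb, 991 with at least 4 regions and 63 with at least 8, 95 with the shorter peak lists and 163 with values at or above the median. The percentage of shared distal regions in domains, 6.79 as reported, was 3.0 and 19.5 with those gaps, 12.7 and 1.69 with those region counts and 3.05 with the shorter lists. The percentage of value, 8.61 as reported, was 3.68 and 23.6, 15.7 and 2.16, 3.56 with the shorter lists, 6.32 at or above the median and 7.44 beyond 2.5 kb from every TSS. The percentage of coding genes with a domain, 1.28 as reported, was 0.465 and 4.63, 2.72 and 0.228, 0.251 with the shorter lists, 0.483 at or above the median, 0.720 beyond 2.5 kb and 1.86 with genes assigned by the nearest TSS. The percentage of domain regions with a footprint in both libraries, 83.3 as reported, was 74.7 with a gap of 6 kb, 75.1 with at least 8 regions and 94.8 at or above the median. Each library alone, with no demand that the other share the region, gave 1249 to 1459 domains, 15.6 to 20.4% of regions, 16.9 to 18.3% of value, 3.95 to 4.67% of genes and 36.1 to 46.6% with a footprint in both. The causes were not tested. Leaving out tRNA regions gave 397 domains and leaving out multi-copy regions 410, settings chosen after seeing the data, and 14 and 17 of the strongest 20 domains were then still among the strongest 20. Ranking by replicate 1 or replicate 2 alone kept 17 of 20, by mean value per region 6 and by value per 10 kb 4. The lists' counts are small and moved with the rule: activity-induced genes with a domain numbered 3 as reported, 6 with at least 4 regions and 0 beyond 2.5 kb from every TSS or with the shorter lists. No paired analysis was possible because there is 1 group and no second group to pair with. The unknown depth and the single donor identifier limit what the libraries' closeness shows.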
